A study of Homo sapiens with 6 samples.

Results

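Fc receptors bind the constant part of antibodies and let a myeloid cell take up, kill or respond to whatever the antibody has coated. The genes described here were a fixed list of 10: FCGR1A, FCGR1B, FCGR2A, FCGR2B, FCGR2C, FCGR3A, FCGR3B, FCAR, FCER1G and FCGRT. All 10 were found by symbol among the 13289 genes that the deposited tables list. Of these, 8 were in both the DMSO and the ATRA table and passed the filter on low counts, and FCGR3A and FCGR3B were in the ATRA table alone. The rule names genes of a family and uses no measured value, but the family was picked with earlier results of these data known.

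The libraries were RNA-seq of NB4, a human acute promyelocytic leukemia line that carries the PML-RARA fusion and turns granulocytic when given all-trans retinoic acid (ATRA). Cells carried a control construct (CTRL) or 1 of 2 short hairpin RNAs, shRNA1 and shRNA2, against SMARCD2, a subunit of BAF (SWI/SNF) chromatin remodelling complexes. Every construct received either the vehicle DMSO (labelled undifferentiated) or ATRA at 1 µM (labelled differentiated), for 6 libraries in all, so that each treatment had 1 CTRL library and 2 with a hairpin. All groups share the NB4 background, and no source used here gives a treatment time. Nothing says that the libraries came from separate cultures beyond their construct and treatment, so p-values measure the spread between these constructs. For knockdown against CTRL within a treatment, and for the difference in ATRA response, that spread is the one between the 2 hairpins. It holds no CTRL replication.

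Library totals ran from 29291209 to 58099733 counts. Levels are in CPM, with library sizes scaled by TMM. In DMSO the SMARCD2 level was 95.5 CPM in CTRL against 39.0 with shRNA1 and 25.7 with shRNA2, and in ATRA it was 122 against 64.2 and 35.6 CPM. The 5 promyelocyte markers, among them MPO, summed to between 10131 and 10367 CPM in DMSO. In ATRA 4 of them were listed, without ELANE, and summed to between 4612 and 6293 CPM, most of it MPO (4298 to 5764 CPM). PRTN3 of the same list rose under ATRA, from between 37.0 and 75.3 CPM to between 232 and 411 CPM (log2 2.58 ± 0.12, edgeR adjusted p = 2.2e-07). The natural killer cell markers KLRD1 and KLRF1, the B cell markers MS4A1 and BLK, the macrophage marker CD163 and the mast cell markers FCER1A and CPA3 were listed in neither table.

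As background, FCGR1A (CD64) is the high-affinity receptor for IgG, and FCGR2A (CD32A) is a low-affinity receptor with an activating ITAM motif in its own tail. FCGR2B carries an inhibitory ITIM motif in place of the ITAM. FCGR2C joins an FCGR2B-like outer part to an FCGR2A-like activating tail. FCGR3A (CD16A) signals through adaptors, while FCGR3B (CD16B) is held in the membrane by a lipid anchor and is the abundant IgG receptor of mature neutrophils. FCAR (CD89) binds IgA. FCER1G encodes the common gamma chain, the ITAM adaptor on which FCGR1A, FCGR3A and FCAR depend. FCGRT encodes the heavy chain of the neonatal receptor FcRn, which pairs with beta-2 microglobulin and returns IgG from endosomes. FCGR1A is a textbook surface marker of interferon-treated myeloid cells.

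The promoters of FCGR1A, FCGR2A and FCGR2B are shown because their windows held matches to motifs of known myeloid regulators. They were picked for these matches, which are thus no finding about the list. The sequences are the 250 bases before an annotated start, from RefSeq on GRCh38.p14, on the plus strand: chr1:149782444-149782693 for FCGR1A, chr1:161505207-161505456 for FCGR2A and chr1:161662893-161663142 for the second of the FCGR2B starts. Capitals mark matches, on either strand, to GAGGAA, the core of a PU.1 site (TTCCTC when read on the other strand), or to TTCNNNGAA, the GAS element of interferon-responsive promoters.
FCGR1A: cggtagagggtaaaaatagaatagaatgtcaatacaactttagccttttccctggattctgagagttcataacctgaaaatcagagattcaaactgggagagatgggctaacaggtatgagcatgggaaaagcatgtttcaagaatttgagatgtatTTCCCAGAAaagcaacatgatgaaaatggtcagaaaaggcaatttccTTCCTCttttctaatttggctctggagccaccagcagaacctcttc
FCGR2A: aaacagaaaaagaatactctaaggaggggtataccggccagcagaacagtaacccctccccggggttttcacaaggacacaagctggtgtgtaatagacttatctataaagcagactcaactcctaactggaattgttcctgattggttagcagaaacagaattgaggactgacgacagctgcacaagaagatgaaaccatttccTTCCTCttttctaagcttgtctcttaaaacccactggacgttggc
FCGR2B: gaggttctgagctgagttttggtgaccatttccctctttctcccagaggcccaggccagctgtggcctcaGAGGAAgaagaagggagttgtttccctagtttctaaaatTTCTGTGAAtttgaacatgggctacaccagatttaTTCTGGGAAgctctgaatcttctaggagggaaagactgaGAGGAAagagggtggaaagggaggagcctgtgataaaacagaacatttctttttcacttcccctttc

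GAGGAA lay 46 bases before the FCGR1A start and 45 bases before the FCGR2A start, both as TTCCTC. It occurred in the FCGR2B window at 180 and at 67 bases before the start. GAS matches lay 93 bases before the FCGR1A start (TTCCCAGAA) and at 141 and 106 bases before the FCGR2B start (TTCTGTGAA and TTCTGGGAA). No match overlapped another. FCGR1A and FCGR2A shared the 20-base run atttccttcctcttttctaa around their TTCCTC, which was found in 2 of the 35116 promoter windows of the table. GAGGAA was in 23.6% of all windows and TTCNNNGAA in 6.57%. AGGTCA, the repeat unit of retinoid receptor sites, was in 12.1% of all windows, and among the receptors it was found at 26 bases before the first FCGR2B start and in 1 window of FCGR3A. The table held 14 windows for 7 of the 10 genes, and the windows of FCER1G and FCGRT held none of these letters. Neither GAGGAA nor TTCNNNGAA was in the first FCGR2B window or in any window of FCGR3A or FCGR3B. These are matches of letters and carry no measurement of binding.

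Several of these genes share sequence, which limits how reads could be assigned to them. Of the 75-base stretches of FCGR1A transcripts (GENCODE v29), 39.3% also occurred in FCGR1B, and 32.2% of those of FCGR1B occurred in FCGR1A. FCGR2C shared 18.6% of its stretches with FCGR2B and 12.3% with FCGR2A, whereas FCGR2B shared 10.7% with FCGR2C. FCGR3A shared 16.8% with FCGR3B. How the authors treated reads that fit several genes is not stated in any source used here, so values within each of these pairs are uncertain. FCAR, FCER1G and FCGRT shared no such stretch with another gene of the list.

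**Figure D1:**
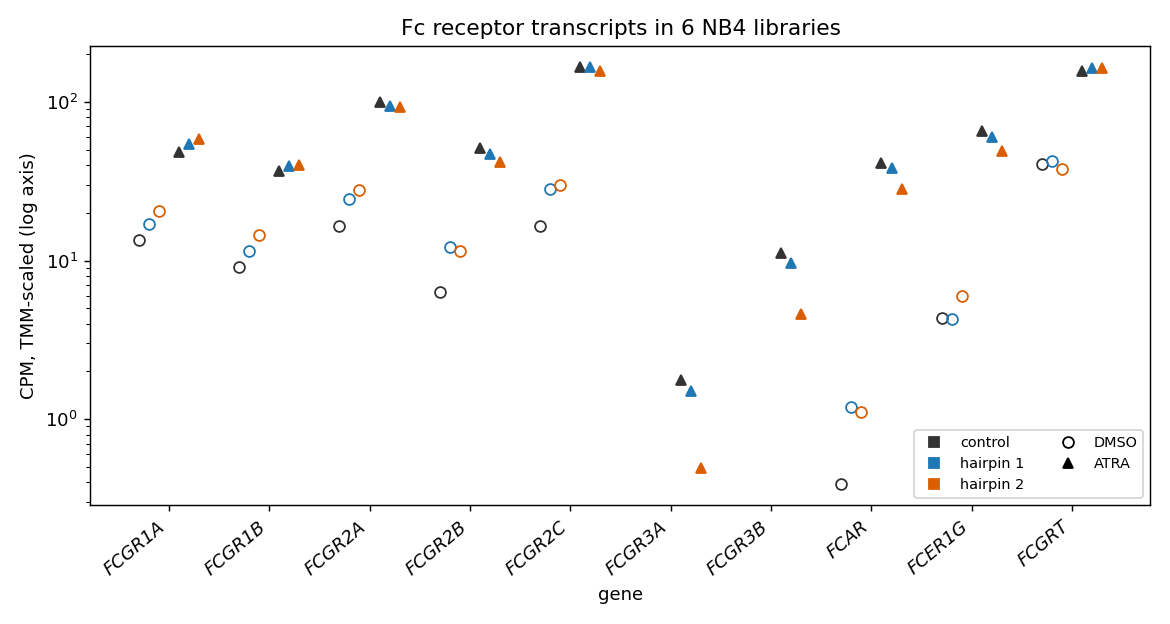
Level of each Fc receptor gene in the 6 NB4 libraries, in TMM-scaled CPM on a log axis. Each point is 1 library (open circles DMSO, filled triangles ATRA, colour the construct). For all 8 genes measured in both treatments the 3 ATRA points lie above the 3 DMSO points, and FCAR in CTRL in DMSO is the lowest point at 0.389 CPM.

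Levels were first set beside each other per kilobase of exon (CPM divided by GENCODE v29 exon length), which allows genes to be compared. In DMSO the order was led by FCGRT at 9.64 ± 0.606 CPM per kb (SD, n = 3 constructs), whose 3 libraries lay above all others. FCGR2C (6.96 ± 2.02), FCGR1A (5.66 ± 1.16), FCER1G (5.06 ± 1.02), FCGR2A (4.30 ± 1.10) and FCGR1B (3.48 ± 0.801) followed, each with a range that overlapped its neighbour's. FCGR2B (1.51 ± 0.480) and FCAR (0.380 ± 0.188) lay below these without overlap. As counted, FCGRT thus had the highest level per length of the list in undifferentiated NB4 cells. FCGR2C shared 29.2% and FCGR1A 39.3% of their 75-base stretches with other genes of the list, and FCGRT shared none. The order of these 3 genes therefore depends on how shared reads were treated.

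In ATRA the adaptor FCER1G came first at 60.7 ± 8.85 CPM per kb, followed by FCGR2C at 45.4 ± 1.52 and FCGRT at 38.6 ± 0.996, with no overlap between these 3. FCGR2A (18.1 ± 0.705), FCGR1A (17.9 ± 1.69) and FCAR (15.1 ± 2.83) followed, where the range of FCGR1A overlapped that of each of the others. FCGR1B (11.4 ± 0.517), FCGR2B (7.03 ± 0.689), FCGR3B (2.76 ± 1.12) and FCGR3A (0.424 ± 0.228) made the lower end. As counted, the place of FCER1G moved from the fourth to the first, and the gene for CD16A was the lowest of the 10. FCGR2C shared 29.2% of its stretches with other genes of the list, and FCER1G shared none. Which of these came first therefore depends on how shared reads were treated.

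ATRA raised every Fc receptor gene that could be tested over the 3 constructs. The question is which receptors change as these leukemic promyelocytes mature. With edgeR's quasi-likelihood test over the 3 constructs, 8 of 8 genes were higher in ATRA at a Benjamini-Hochberg adjusted p under 0.05, where 36.2% of all 12301 genes tested were called higher, 37.8% lower and 74.0% in either direction. In all 8 the 3 ATRA libraries lay above the 3 DMSO libraries, as they did for 37.6% of all genes. The median log2 fold change of the 8 genes was 2.15 and that of all genes was -0.01. With total counts in place of TMM as the scale, the median of all genes moved to -0.14 and that of the 8 genes to 2.02, the 8 genes were still called, and the split of all calls went from 4450 higher and 4650 lower to 3637 and 5722. In bulk RNA, more cells of a type and more RNA per cell cannot be told apart.

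FCAR, the IgA receptor, changed most. It stood at 0.389 CPM in CTRL, 1.19 with shRNA1 and 1.12 with shRNA2 in DMSO, and at 40.9, 38.1 and 28.2 CPM in ATRA. The DMSO values rest on 12, 72 and 49 counts. FCAR rose 36.5-fold (log2 fold change 5.19 ± 0.27 SE, edgeR adjusted p = 4.0e-07), which placed it at rank 60 from the top among the 12301 genes.

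FCER1G, the signalling adaptor, came next among the receptors. Its levels were 4.32, 4.30 and 6.02 CPM in DMSO for CTRL, shRNA1 and shRNA2, and 65.9, 60.4 and 49.2 CPM in ATRA. The increase was 11.9-fold (log2 3.57 ± 0.15, edgeR adjusted p = 1.5e-07), rank 189 from the top. All 3 ATRA libraries stood far above all 3 DMSO libraries, and the spread within each treatment was small beside the gap.

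Among the low-affinity IgG receptors, FCGR2C went from 16.6, 28.2 and 30.0 CPM in DMSO to 166.2, 165 and 156 CPM in ATRA, again in the order CTRL, shRNA1 and shRNA2 (log2 2.72 ± 0.15, edgeR adjusted p = 6.4e-07). FCGR2B, the inhibitory member, went from 6.36, 12.2 and 11.5 to 51.1, 47.1 and 42.0 CPM (log2 2.22 ± 0.19, edgeR adjusted p = 9.2e-06). FCGR2A went from 16.4, 24.4 and 27.7 to 100.2, 94.4 and 93.2 CPM (log2 2.08 ± 0.14, edgeR adjusted p = 2.0e-06). In each of the 3 the lowest DMSO library was CTRL and the highest ATRA library was also CTRL. FCGR2B made up 16.2%, 18.9% and 16.6% of the summed FCGR2 counts in DMSO and 16.1%, 15.4% and 14.4% in ATRA, so the inhibitory gene kept a small share in every library.

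The ratio of FCGR2C to FCGR2B in CPM was 2.61, 2.30 and 2.61 in DMSO and 3.25, 3.50 and 3.72 in ATRA, and the 2 sets did not overlap. That of FCGR2A to FCGR2B ran from 2.00 to 2.58 in DMSO and from 1.96 to 2.22 in ATRA and overlapped. These ratios depend on how shared reads were split between the genes.

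The high-affinity receptor gene FCGR1A stood at 13.5, 16.9 and 20.5 CPM in DMSO and at 48.6, 54.1 and 58.7 CPM in ATRA, for CTRL, shRNA1 and shRNA2. It rose 3.19-fold (log2 1.67 ± 0.09, edgeR adjusted p = 5.6e-07). FCGR1B, its near-identical copy, went from 9.15, 11.6 and 14.6 to 36.7, 39.2 and 40.03 CPM (log2 1.72 ± 0.11, edgeR adjusted p = 1.7e-06). The ratio of FCGR1A to FCGR1B stayed between 1.32 and 1.48 in all 6 libraries. FCGR1A had the smallest estimate of the 8 genes, within 1 SE of that of FCGR1B.

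FCGRT held the tightest values. Its levels were 40.5, 42.6 and 37.6 CPM in DMSO and 156.4, 164 and 163 CPM in ATRA, a 4-fold increase (log2 2.00 ± 0.06, edgeR adjusted p = 1.6e-08). B2M, the light chain of FcRn and of class I antigen presentation, rose by log2 1.33 ± 0.04 (edgeR adjusted p = 2.6e-08), from between 1099 and 1201 CPM in DMSO to between 2762 and 3020 CPM in ATRA.

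FCGR3A and FCGR3B, the CD16 genes, were listed in the ATRA table alone, so no ATRA fold change was computed for them. FCGR3A held 50, 73 and 21 counts in CTRL, shRNA1 and shRNA2, or 1.77, 1.498 and 0.492 CPM. FCGR3B held 316, 470 and 198 counts, or 11.2, 9.64 and 4.64 CPM. In every ATRA library FCGR3B exceeded FCGR3A, by 6.32, 6.44 and 9.43 times. The neutrophil markers CEACAM8, MMP8, LTF and CXCR2 were likewise listed in ATRA alone, and the 6 markers of that list summed to between 1053 and 1191 CPM there.

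**Figure D2:**
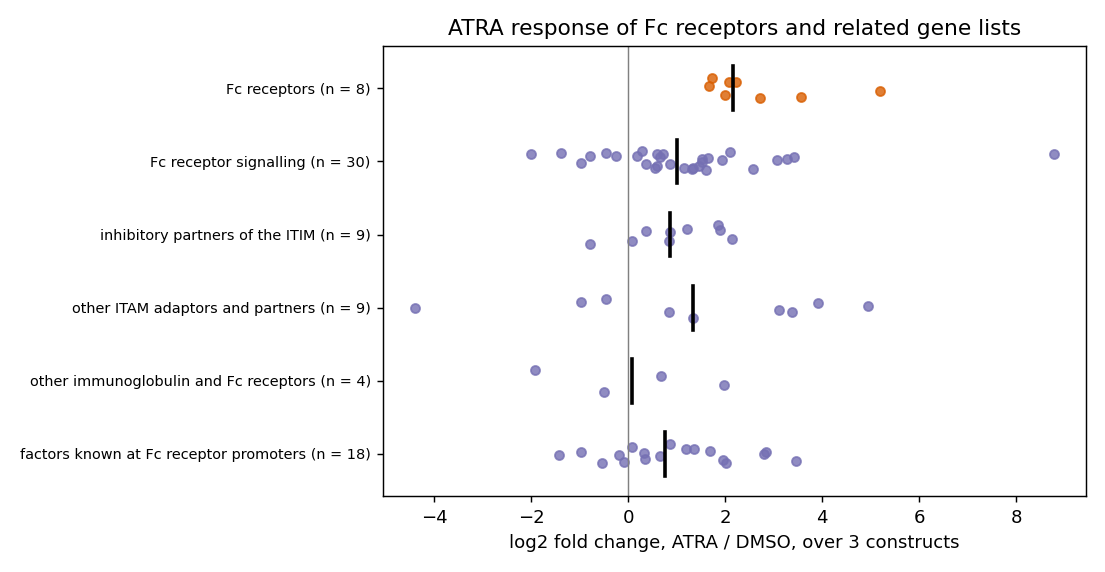
ATRA response (log2 fold change over the 3 constructs) of the 8 Fc receptor genes tested in both treatments and of 5 related gene lists. Each point is a gene and each bar the median of its list. The receptors all lie to the right of 0 with a median of 2.15, while the related lists hold genes on both sides, with FGR at 8.77 the highest point.

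The machinery that Fc receptors act through was read from 5 lists of textbook genes. Of 30 Fc receptor signalling genes, 23 were higher and 6 lower in ATRA (edgeR adjusted p under 0.05), with a median log2 fold change of 1.00. Over all 12301 genes tested, 36.2% were called higher, 37.8% lower and 74.0% in either direction. These shares stand beside the counts of each of the 5 lists. FGR, a Src-family kinase of mature myeloid cells, rose the most at log2 8.77 ± 0.11, from between 1.49 and 1.71 CPM to between 618 and 797 CPM. The PI3K-gamma subunits PIK3R5 and PIK3CG rose by 3.28 ± 0.09 and 3.07 ± 0.06 on the log2 scale. SYK, the kinase that docks on phosphorylated ITAMs, rose by 0.71 ± 0.05. PLCG1 (-2.01 ± 0.06) and the scaffold GAB2 (-1.38 ± 0.05) were lower.

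Of 9 genes listed as inhibitory partners of the ITIM or as other signalling regulators, 7 were higher and 1 lower, with a median of 0.87. The adaptor DOK2 (2.14 ± 0.14), the phosphatases PTPRC (1.89 ± 0.06) and PTPN6 (1.84 ± 0.06) and the kinase CSK (1.22 ± 0.06) led. PTPRC and CSK act on Src-family kinases and are among the other regulators. INPP5D, which encodes SHIP1, the lipid phosphatase that FCGR2B recruits, was the member that was lower, at -0.78 ± 0.05. Of 9 other ITAM adaptors and partners, 6 were higher and 2 lower, with a median of 1.33. TYROBP (DAP12) rose by 3.37 ± 0.11 and the integrin chain ITGAM by 3.92 ± 0.12. The B cell receptor chains moved in opposite directions, CD79A by 4.94 ± 0.12 and CD79B by -4.39 ± 0.16.

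Of 20 other immunoglobulin and Fc receptors, 8 were listed in a table and 4 in both. TRIM21, the cytosolic antibody receptor, rose by 1.98 ± 0.07. LGALS3 (-1.93 ± 0.14) and FCGBP (-0.51 ± 0.11) were lower, and FCRLB at 0.68 ± 0.29 missed the threshold (edgeR adjusted p = 0.062). Of 18 genes listed around factors known at Fc receptor promoters, 12 were higher and 4 lower, with a median of 0.76. The list also holds receptor chains and kinases that are no promoter factors, and all of these were higher. They were IFNGR1 (1.35 ± 0.08), IFNGR2 (0.87 ± 0.06), JAK1 (0.34 ± 0.06) and JAK2 (1.69 ± 0.05). CEBPE (3.45 ± 0.09), IRF1 (2.85 ± 0.06), CEBPB (2.79 ± 0.08) and SPI1 (2.01 ± 0.08), which encodes PU.1, had the largest changes.

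SMARCD2 knockdown without ATRA went with higher levels of the FCGR2 genes, FCAR and the FCGR1 pair, but none passed the threshold. The comparison asks whether the BAF subunit bears on these genes before maturation. For 6 of 8 genes (FCGR1A, FCGR1B, FCGR2A, FCGR2B, FCGR2C and FCAR) both knockdown libraries lay above CTRL in DMSO, as they did for 34.7% of all genes. Within run 1 alone, and within run 2 alone, FCER1G joined these genes. The share of all genes within a run was not computed. The runs were read, from column names alone, as coming from the same libraries, and their shares of the counts differed between libraries. edgeR's test called 0 of 8 genes and 0% of all 12301 genes, with a smallest adjusted p of 0.13. Its errors come from the spread between hairpins and hold no CTRL replication. At an unadjusted p under 0.05 it had 6 of the 8 genes and 868 genes in all, or 7.06%. DESeq2 called 38 genes, of which 3 were FCGR2A, FCGR2B and FCGR2C, and limma-voom called 0.

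Each of the FCGR2 genes had a similar ratio to CTRL with either hairpin. FCGR2C, at 28.2 and 30.0 CPM against 16.6, was higher by log2 0.76 with shRNA1 and 0.85 with shRNA2, and its fitted difference of 0.81 ± 0.09 ranked 2 by p among all genes (edgeR adjusted p = 0.13, DESeq2 adjusted p = 7.8e-07). FCGR2B, at 12.2 and 11.5 CPM against 6.36, differed by 0.90 ± 0.13 (edgeR adjusted p = 0.18, DESeq2 adjusted p = 0.0012). FCGR2A, at 24.4 and 27.7 CPM against 16.4, differed by 0.67 ± 0.10 (edgeR adjusted p = 0.2, DESeq2 adjusted p = 0.0012). Activating and inhibitory genes of this locus thus had differences of 1.59-fold to 1.87-fold in the same direction.

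The authors' deposited table for DMSO gives these 3 genes a log2 fold change of 0.57 for FCGR2C (adjusted p = 2.6e-08), 0.50 for FCGR2B (5.5e-05) and 0.45 for FCGR2A (9.5e-05), among 104 genes higher and 42 lower. No source used here says whether these fold changes were shrunken. The test in the authors' deposited table may have counted both count columns of a library, read here as sequencing runs, as replicates. Run 1 gave 54.6% of the CTRL counts in DMSO but 80.7% and 70.6% of the knockdown counts. With run 1 alone the differences were 0.92 for FCGR2C, 0.83 for FCGR2B and 0.78 for FCGR2A. With run 2 alone they were 0.70, 1.08 and 0.58. Without the shRNA1 library in DMSO, edgeR called 21 genes, FCGR2A (0.77, adjusted p = 0.042) and FCGR2C (0.86, adjusted p = 0.042) among them, with the lone shRNA2 library assumed to vary like the ATRA libraries.

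FCAR had the largest difference of the 8 genes, log2 1.62 with shRNA1 and 1.52 with shRNA2, and a fitted 1.57 ± 0.48 (edgeR adjusted p = 0.62). Its CTRL level of 0.389 CPM has an exact Poisson 95% interval, for counting error alone, of 0.201 to 0.680 CPM, below the 0.934 and 0.826 CPM at which the knockdown intervals begin. FCGR1A (0.46 ± 0.14, edgeR adjusted p = 0.61) and FCGR1B (0.51 ± 0.16, edgeR adjusted p = 0.62) were higher with shRNA2 than with shRNA1. FCER1G stood at 4.30 CPM with shRNA1 and 6.02 with shRNA2 against 4.32 in CTRL, and FCGRT at 42.6 and 37.6 against 40.5, so the hairpins fell on both sides of CTRL for these genes in the summed counts. This did not hold within runs: FCER1G lay above CTRL with both hairpins in run 1 (4.02 and 5.77 against 3.86 CPM) and in run 2 (5.42 and 6.60 against 4.84), and FCGRT lay below CTRL with both in run 2 (37.7 and 35.5 against 38.4). Of the 6 neutrophil markers only CSF3R and ITGAM were listed in DMSO. CSF3R stood at 140.2 CPM in CTRL against 138 and 128 with the hairpins, and ITGAM at 25.3 against 28.7 and 38.3, with a summed level between 165.6 and 166.7 CPM. The eosinophil markers summed to 1431 CPM in CTRL against 1587 and 2278 with the hairpins, with CLC not listed. Most of that sum was PRG2 (1307 against 1505 and 2172 CPM), and CCR3 was higher too (11.4 against 12.1 and 14.5). EPX (111 against 69.1 and 90.5 CPM) and SIGLEC8 (1.07 against 0.912 and 0.798) were lower with both hairpins. The natural killer cell markers summed to 53.1 CPM against 61.3 and 89.0, with KLRD1 and KLRF1 not listed. NCAM1 held 32.6 CPM of it against 37.3 and 63.1. NKG7 and CD247 were also higher with both hairpins, and GNLY fell on both sides of CTRL. The part of these markers in the result was not tested.

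**Figure D3:**
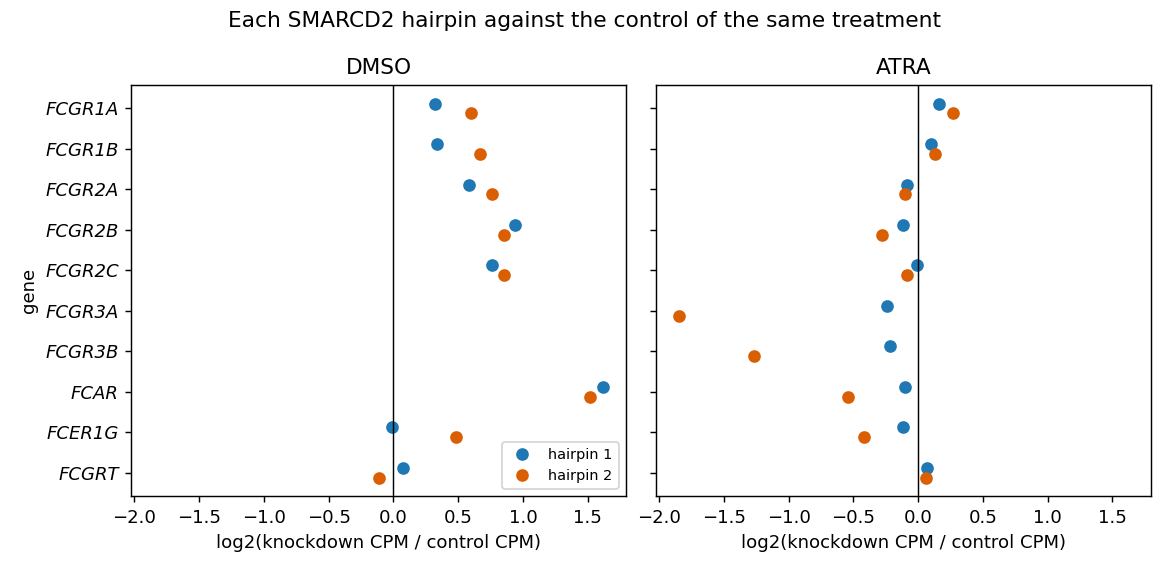
Log2 ratio of each knockdown library to the CTRL library of the same treatment, in DMSO (left) and ATRA (right), 1 point per hairpin and gene. In DMSO the FCGR2 genes lie between 0.58 and 0.94 and FCAR at 1.62 and 1.52. In ATRA these genes lie at or below 0, and FCGR3A (-1.85) and FCGR3B (-1.27) are lowest with shRNA2.

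In ATRA no Fc receptor gene passed the threshold between knockdown and CTRL, and the lowest ratios were those of the CD16 genes, FCAR and FCER1G with shRNA2. Of the 10 genes, 7 lay below CTRL with both hairpins (37.4% of all genes did) and 3, FCGR1A, FCGR1B and FCGRT, lay above it with both (39.2%). edgeR's test called 0 of 8 genes, where 0.00813% of all genes, a single gene, was called in either direction. At an unadjusted p under 0.05 it had 0 of the 8 genes and 1329 genes in all, and DESeq2 called 52 genes and none of the 8. The fitted differences ran from -0.30 ± 0.17 for FCAR (edgeR adjusted p = 0.55) to 0.22 ± 0.12 for FCGR1A (edgeR adjusted p = 0.55). FCGR2C, at -0.05 ± 0.07, lay above CTRL with shRNA1 when run 2 was read alone (172 against 167 CPM). In run 2 alone FCGRT lay below CTRL with both hairpins (147 and 148 against 153 CPM).

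FCAR stood at 38.1 CPM with shRNA1 and 28.2 with shRNA2 against 40.9 in CTRL, and FCER1G at 60.4 and 49.2 against 65.9. FCGR3A was lower by 0.24 on the log2 scale with shRNA1 and by 1.85 with shRNA2. FCGR3B was lower by 0.22 and by 1.27. In the fit to the ATRA table alone, FCGR3A differed by -0.81 ± 0.60 (edgeR adjusted p = 0.64) and FCGR3B by -0.65 ± 0.36 (edgeR adjusted p = 0.54), where 0.00779% of the 12837 genes tested were called. The differences of the CD16 genes were carried by the library with shRNA2, and the hairpins differed from each other by more than the fitted differences. Less SMARCD2 was left with shRNA2 than with shRNA1, and a link of the CD16 values to this was not tested. No gene of the list passed the threshold in the authors' deposited table for ATRA, where FCER1G had the smallest adjusted p (-0.22, adjusted p = 0.16).

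Over both treatments together, knockdown against control called 0 of 8 genes and 0% of all genes with edgeR, with 2 of the 8 and 1003 genes at an unadjusted p under 0.05, and DESeq2 called 48 genes and none of the 8. FCGR1A had the smallest p of the list (0.32 ± 0.10, edgeR adjusted p = 0.51) and lay above CTRL with both hairpins in either treatment. FCAR, with differences of opposite sign in the 2 treatments, stood at -0.06 ± 0.25.

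The fold change under ATRA was larger in CTRL than in knockdown cells for the FCGR2 genes and FCAR, and this difference did not pass edgeR's threshold. In knockdown cells 8 of 8 genes were called higher (34.6% of all genes). In CTRL 8 of 8 were called as well (29.3%), but with 1 library per treatment these calls and their errors hold no CTRL replication and borrow the spread of the knockdown libraries. FCAR had a log2 fold change of 6.71 ± 0.34 in CTRL and 4.83 ± 0.19 in knockdown cells. FCGR2C had 3.32 ± 0.10 and 2.47 ± 0.06, FCGR2B 3.01 ± 0.14 and 1.91 ± 0.09, and FCGR2A 2.61 ± 0.11 and 1.85 ± 0.07. The differences between the 2 responses were -1.87 ± 0.50 for FCAR (edgeR adjusted p = 0.43), -0.86 ± 0.11 for FCGR2C (0.071), -1.10 ± 0.16 for FCGR2B (0.11) and -0.76 ± 0.13 for FCGR2A (0.19).

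edgeR called 0 of 8 genes for this difference and 0.0488% of all genes, 6 in number. At an unadjusted p under 0.05 it had 4 of the 8 genes and 979 genes in all. DESeq2 called 48 genes, among them FCGR2C (-0.87, adjusted p = 9.9e-05), FCGR2B (-1.11, adjusted p = 0.0033) and FCGR2A (-0.77, adjusted p = 0.013), and limma-voom called 2 genes and none of the 8. With FCGR2B and FCGR2C summed to 1 row, which removes the split of their shared reads, the difference was -0.92 ± 0.10 (edgeR adjusted p = 0.053). The difference contains the DMSO libraries of the preceding comparison and is no separate observation: FCGR2A, FCGR2B, FCGR2C and FCAR lay above CTRL with both hairpins in DMSO and below it with both in ATRA, as 12.5% of all genes did, and the DMSO side was the larger for each.

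The differences of the remaining 4 genes were smaller. FCER1G rose by 3.93 ± 0.25 in CTRL and 3.43 ± 0.16 in knockdown cells, FCGR1A by 1.84 ± 0.15 and 1.60 ± 0.10, and FCGR1B by 2.00 ± 0.17 and 1.61 ± 0.11. FCGRT rose by 1.95 ± 0.10 and 2.03 ± 0.07, and its difference of 0.08 ± 0.12 was the only positive one of the 8.

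**Figure D4:**
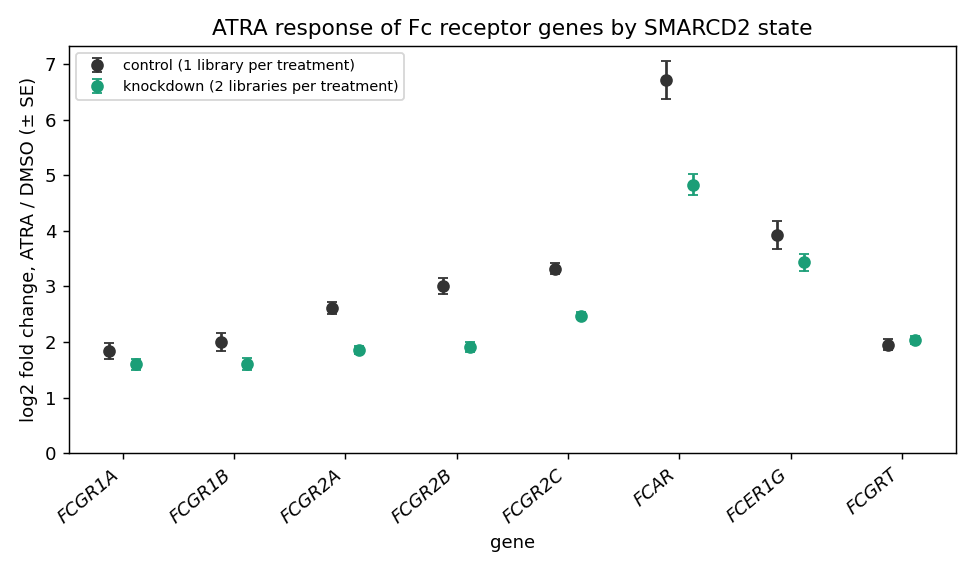
ATRA response (log2 fold change, ATRA over DMSO) of each Fc receptor gene in CTRL cells (1 library per treatment) and in knockdown cells (2 libraries per treatment), with bars of 1 standard error from the edgeR fit. The gap is widest for FCAR, 6.71 against 4.83, and the points of FCGRT, 1.95 and 2.03, overlap.

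Between the hairpins no Fc receptor gene passed the threshold either. edgeR called 0 of 8 between shRNA2 and shRNA1 over the 4 knockdown libraries, where 2.03% of the 12300 genes tested were called, and 2 of the 8 and 1380 genes in all had an unadjusted p under 0.05. DESeq2 called 49 genes and none of the 8. FCAR was lower with shRNA2 by -0.37 ± 0.12 (edgeR adjusted p = 0.12), which limma-voom called at -0.41 (adjusted p = 0.012). FCGR1A was higher by 0.19 ± 0.07 (edgeR adjusted p = 0.26), and FCGR2C had -0.00 ± 0.06. Within the related lists IRF8 (0.48 ± 0.09, edgeR adjusted p = 0.0024) was higher with shRNA2, and FCRLB (-0.72 ± 0.15, edgeR adjusted p = 0.0062) and ETS1 (-0.49 ± 0.07, edgeR adjusted p = 8.6e-05) were lower. In each of the knockdown comparisons with CTRL, 0 genes of the 5 lists were called by edgeR.

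The genes whose pattern over the 6 libraries lay closest to each receptor were taken by distance between centred log2(CPM + 0.5) values. For FCGR2A they were C3AR1, the receptor for complement C3a (distance 0.19), USP41 (0.22) and CD300A, an inhibitory receptor of myeloid cells (0.23). FCGR2B had CD300A (0.28), C3AR1 (0.29) and IGSF6 (0.30), so the activating and inhibitory FCGR2 genes shared 2 of their 3 nearest genes. CD300A stood at 15.7, 24.4 and 29.7 CPM in DMSO and 117, 101 and 91.8 CPM in ATRA, higher than CTRL with both hairpins in DMSO and lower with both in ATRA, like the FCGR2 genes.

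FCGR2C had HIST1H2AC (0.32), BST1 (0.34) and DUSP5 (0.35). FCGR1A had DZIP1L (0.11), the cholesterol transfer protein gene NPC2 (0.18) and LILRA2 (0.18), an activating receptor that pairs with the FCER1G adaptor. FCGR1B had IRF7 (0.14), a regulator of interferon genes, then DZIP1L (0.18) and NPC2 (0.18). FCER1G had CSF1 (0.23), FOXC1 (0.25) and BCL6 (0.26), and FCGRT had SASH3 (0.10), KIF21B (0.14) and TMEM229B (0.15). FCAR stood farthest from any other gene, with IFI44L (0.51), GNG2 (0.64) and KCNE1 (0.67) nearest. These distances describe 6 libraries that share constructs and depth, and carry no test.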

How the data were processed

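The measurement was RNA-seq of 6 NB4 libraries. The submitters' processing notes name GRCh37.p13 as the build and STAR, Picard 2.5.0, bcl2fastq and DESeq2 as tools, without their roles. No source used here says whether counting used strand. Raw counts per gene, in whole numbers, came from the 2 tables the authors deposited, 1 per treatment. Both count columns of a library were read as sequencing runs, an assumption from the column names, and added. The deposited tables also hold a log2 fold change and p-values, raw and adjusted, from the authors' own comparison. The 12 columns of normalized values were not used. Genes absent from a table have no value, and the filter behind this is not stated.

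Tools were edgeR 4.0.16, DESeq2 1.42.0 and limma 3.58.1 in R 4.3.3, with Python 3.11.15 for summaries. Library sizes were the full table totals, scaled with TMM, and low genes were removed by filterByExpr on the groups. Tests were glmQLFit and glmQLFTest of edgeR, with Benjamini-Hochberg adjustment over all genes tested and a threshold of 0.05. ATRA and knockdown over both treatments came from an additive fit (3 residual degrees of freedom), comparisons within a treatment or state and the difference in response from a fit of 4 groups (2, from the spread between hairpins), and the hairpin and ATRA-table fits had 1. A standard error is the absolute log2 fold change over the square root of F. The fits were tested on simulated data. Intervals cover counting error only. Motifs were searched in RefSeq promoter windows, and FCGR1B, FCGR2C and FCAR had none.

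Members and gene lists were chosen with earlier results of these data known. All members are named. Of each list, the 4 genes of largest change among those called under ATRA are named with any called in a knockdown or hairpin comparison, and for each member the 3 nearest genes. A list gene that this rule takes in is not reported here. PLCG1, GAB2, SYK, INPP5D, B2M, FCRLB, IFNGR1, IFNGR2, JAK1 and JAK2 are named for their function or after their values were seen. Alternatives were other scalings, no filter, DESeq2, limma-voom, each run alone, near-identical pairs summed (FCGR1A with FCGR1B, FCGR2B with FCGR2C, FCGR3A with FCGR3B), a construct block and leaving out each library.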

Additional observations from a re-analysis of the deposited data

How the results depend on the processing

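Of 625 member values under alternatives, 591 kept their direction and side of the threshold, all 118 of the ATRA response among them, 16 gained the threshold and 18 reversed. Counts of genes called moved as follows. For knockdown in DMSO (0 genes) DESeq2 gave 38, with 3 members, run 2 alone gave 3, and leaving out 1 library gave 0 to 21, with 0 to 2 members. For knockdown in ATRA (1 gene) DESeq2 gave 52, run 2 alone 7, and leaving out 1 library 0 to 1, with 0 without either knockdown ATRA library. For the difference in ATRA response (6 genes) DESeq2 gave 48, with 3 members, limma-voom 2, and leaving out 1 library 1 to 2. For knockdown over both treatments (0 genes) total counts gave 1, DESeq2 48, run 2 alone 1, and leaving out 1 library 0 to 1. For the hairpins (250 genes) RLE size factors gave 382, DESeq2 49 and limma-voom 441, with 1 member, FCAR. For the ATRA table alone (1 gene) DESeq2 gave 57, run 1 alone 19 and run 2 alone 434. The cause was not tested.

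Reversed values were small, apart from FCAR. Over both treatments these were FCAR under DESeq2 (0.43) and FCGRT in run 2 (-0.06). Leaving out the CTRL DMSO or the CTRL ATRA library gave the ends of the range for FCGR2A (-0.10 to 0.67), FCGR2B (-0.20 to 0.90), FCGR2C (-0.05 to 0.81), FCAR (-0.31 to 1.57) and FCER1G (-0.27 to 0.24), so these pooled values rest on single CTRL libraries. FCGRT ran from -0.01 to 0.07, with -0.00058 without shRNA1 in DMSO, and FCAR gave 0.18 and FCER1G 0.02 without shRNA2 in ATRA. In run 2 FCGRT gave -0.05 for knockdown in ATRA. Without 1 library it ran from -0.09 to 0.08 for knockdown in DMSO and from -0.02 to 0.16 for the difference in response. Between hairpins FCGR2C gave 0.01 with total counts, 0.0017 with DESeq2 and 0.0094 in run 1, and FCER1G 0.09 with DESeq2.

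With construct or hairpin as a replicate block, deviations from the treatment mean correlated between DMSO and ATRA with r = 0.0802 for CTRL, 0.194 for shRNA1 and 0.212 for shRNA2 over 9467 genes, and each construct correlated best with its own number, a hint from the data and not from the design. The first is under 0.1, so the pairing was not taken as given. The block called 116 genes in DMSO, with 3 members (FCGR2A 0.67, adjusted p = 0.0023; FCGR2B 0.90, 0.0019; FCGR2C 0.80, 3.1e-04 in edgeR), 348 in ATRA with 0 members, and 129 for the difference in response, with 4 members (FCGR2A -0.76, 0.0061; FCGR2B -1.10, 0.0019; FCGR2C -0.86, 0.0013; FCAR -1.85, 0.03). It changed no ATRA call of a member. Leaving out a library was not run for the hairpin and ATRA-table fits, where no residual degrees of freedom would remain, nor the CTRL library of a treatment for a comparison that needs it.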

Other observations

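Several other immunoglobulin receptors were listed in the ATRA table alone and enter no comparison across treatments. CD22, an inhibitory lectin of B cells, held 10.3 CPM in CTRL, 11.0 with shRNA1 and 10.8 with shRNA2. FCRL6 held 3.15, 3.30 and 2.43 CPM, and FCRL1 0.461, 0.246 and 0.211 CPM from 13, 12 and 9 counts. FCER2 (CD23), the low-affinity IgE receptor, held 5, 33 and 66 counts, or 0.177, 0.677 and 1.55 CPM, so both knockdown libraries lay above CTRL. MS4A1 and BLK, defining genes of B cells, were listed in neither table, while CD79A rose from between 0.957 and 1.46 CPM in DMSO to between 34.0 and 34.4 CPM in ATRA. FCRLB, an intracellular member of the family, held 3.63, 6.35 and 3.74 CPM in DMSO and 9.78, 8.06 and 4.99 CPM in ATRA, with the lowest ATRA library below the highest DMSO library.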
